A study of Homo sapiens with 30 samples.

Results

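The human protocadherin gene clusters lie side by side on chromosome 5, and binding of CTCF, MBD3, TET1 and TET2 across them is described here. The members were chosen by position alone. They are the peak regions of 8 peak lists that overlap hg19 positions 140150000 to 140900000, a window of 750 kb. The alpha cluster was taken as about 140160000 to 140390000, the beta cluster as about 140430000 to 140630000 and the gamma cluster as about 140710000 to 140890000. The window held 63 of the 70565 regions of all 8 lists. In cells without IAA there were 45 CTCF, 11 TET1, 2 MBD3 and 0 TET2 regions, and with IAA there were 5 TET2 regions and 0 of each of the others.

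The data are chromatin immunoprecipitation sequencing (ChIP-seq) of HEK293T, an established human embryonic kidney line. In all 10 groups of 3 samples the cells had been edited at CTCF for auxin-inducible degradation, and all had been co-transfected with plasmids for ScFv-miniIAA7-mEGFP and AtAFB2-mCherry, the parts of the degradation system. Some groups then received indole-3-acetic acid (IAA), an auxin that triggers degradation, at 0.5 mM for 72 h. The others spent the same time without IAA, a condition that 1 label names DMSO. Because the system came by transfection, cells that took up no plasmid can be present in every group. The labels do not say whether the edited cells were 1 clone. Each list pools the 3 samples of 1 antibody and condition, so no value per sample exists, no list has a replicate error, and none of the differences below was tested. The read depth behind the lists is unknown. It limits how many weak peaks reach the threshold, so a longer list can reflect more reads.

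Clustered protocadherins are adhesion proteins of the cell surface, best known from neurons, where each cell uses its own mix of them as an identity code. In the alpha and gamma clusters a variable exon, each with its own promoter, is spliced to constant exons shared by the cluster, while beta genes have no shared constant exons. CTCF, a zinc-finger protein that holds the bases of chromatin loops, binds at many of the variable promoters and at distant enhancers, and loops between them take part in promoter choice. MBD3 belongs to NuRD, a complex that remodels nucleosomes and removes acetyl groups from histones. TET1 and TET2 oxidise methylated cytosine, and methylation of its site can keep CTCF off DNA.

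The family comprises 53 genes, with 15 in the alpha, 16 in the beta and 22 in the gamma cluster. The lists are in hg19, and no hg19 annotation or sequence was used here, so no region below is tied to a gene, exon or promoter. Promoter sequence from RefSeq in build GRCh38.p14 was found for 47 of the 53 genes. The stretches shown hold the letters CGCT, the core of the conserved sequence element that many of these promoters share. The stretches below come from the first 3 genes of each cluster, in chromosomal order, that carry an 8-letter form picked for that cluster, in capitals. Other 8-letter forms were not counted. All are on the plus strand, 5′ to 3′, and their positions cannot be compared with those of the lists.
PCDHA1, chr5:140786077-140786126: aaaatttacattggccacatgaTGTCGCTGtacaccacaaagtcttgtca
PCDHA2, chr5:140794772-140794821: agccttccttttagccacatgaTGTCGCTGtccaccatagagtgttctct
PCDHA5, chr5:140821533-140821582: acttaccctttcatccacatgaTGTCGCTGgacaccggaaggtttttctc
PCDHB2, chr5:141094534-141094583: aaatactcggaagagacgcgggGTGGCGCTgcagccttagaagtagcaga
PCDHB3, chr5:141100383-141100432: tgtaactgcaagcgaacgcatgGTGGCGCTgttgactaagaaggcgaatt
PCDHB4, chr5:141121713-141121762: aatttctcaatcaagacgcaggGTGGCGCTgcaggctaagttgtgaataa
PCDHGA1, chr5:141330395-141330444: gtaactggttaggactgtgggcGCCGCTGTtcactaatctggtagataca
PCDHGB1, chr5:141350017-141350066: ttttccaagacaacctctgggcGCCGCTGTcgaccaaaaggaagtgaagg
PCDHGA7, chr5:141382641-141382690: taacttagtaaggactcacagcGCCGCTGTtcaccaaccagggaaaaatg

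The letters CGCT stood somewhere in the 250 bases before the start of 45 of the 47 genes, against 64.8% of the 35116 promoters in the table, with both strands searched. A match of these 4 letters alone does not show that a promoter has the conserved element, so the count is not a count of that element. The genes without these letters were PCDHA9 and PCDHB8. In every one of the 45 the letters lay on the strand of the gene, where 48.1% of all promoters have them. The longer forms, each of which contains CGCT, were picked from these promoters, so their counts only describe them. TGTCGCTG was found at 6 of 13 alpha promoters, 3 of 20 gamma promoters and 0 of 14 beta promoters, against 0.476% of all promoters. GTGGCGCT was found at 12 of 14 beta promoters and in no alpha or gamma promoter, against 0.94% of all. GCCGCTGT was found at 11 of 20 gamma promoters and in no alpha or beta promoter, against 1.23% of all. The first base of these forms lay 41 to 58 bases before the start in the alpha, 15 to 83 in the beta and 42 to 97 in the gamma promoters that had them.

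CTCF regions were closely set across the window. The 45 regions came to 6.0 per 100 kb, against 1.39 per 100 kb on chromosomes 1 to 22 and X. The flanking stretches of the same length held 33 regions before the window and 35 after it, at 4.4 and 4.67 per 100 kb, so the whole neighbourhood was dense. When chromosomes 1 to 22 and X were cut into 4035 other stretches of this length, the median was 9 CTCF regions (quartiles 5 and 14), and 6 stretches, or 0.149%, had as many as 45. Within the window the beta cluster had the most, 17 regions or 8.5 per 100 kb, followed by gamma with 11 or 6.11 and alpha with 12 or 5.22. The other 5 lay between the clusters or beside them.

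The strength of a region is given here as fold enrichment, the authors' ratio of the peak over its control, which ranks peaks within 1 list. Fold in the window ran from 6.03 to 48.2, with a median of 16.1, against a median of 13.6 (quartiles 7.43 and 24.2) over all 42925 CTCF regions. The list runs from 1.1 to 126. The lowest fold of the window lay above 16.1% of it and the highest above 97.3%. The clusters differed in their profile. In beta, 15 of 17 regions stood above the median of the whole list, against 5 of 12 in alpha and 3 of 11 in gamma. The middle regions of beta lay close together, with quartiles of 16.1 and 20.4. Those of gamma lay lower and nearly as close together, with 9.19 and 13.9, while alpha was wider, with quartiles of 7.68 and 20.3. By −log10 q beta was again highest, with a median of 44.7 against 24.7 in alpha, 23.1 in gamma and 33.4 over the whole list. Regions were also wider in beta, with a median of 272 bp, than in alpha and gamma, with 218 and 227 bp, and the whole list had 276 bp.

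**Figure D1:**
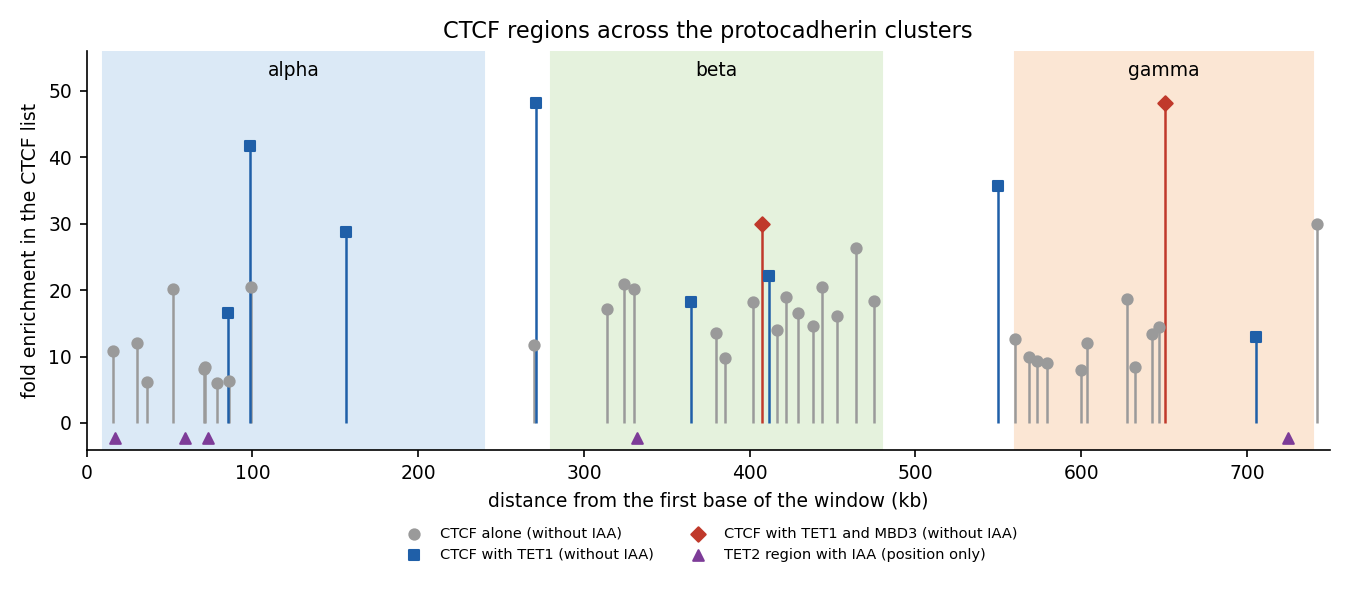
Fold enrichment of each of the 45 CTCF regions without IAA (vertical axis) against the distance of its summit from the first base of the window in kb. Shading marks the clusters, symbols mark TET1 and MBD3, and triangles mark the 5 TET2 regions with IAA by position only. Beta is filled with single regions of similar height, and the tallest regions, at 48.2-fold, stand in the gap before beta and late in gamma.

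In the alpha cluster CTCF regions often came in close pairs. Its 12 regions lay between 140165587 and 140306375, and 6 of them, or 50%, formed 3 pairs with summits within 1 kb of each other. Over the whole list 4.47% of CTCF regions had another summit within 1 kb, a limit set after the values were seen. The pair distances were nearly equal, at 616, 649 and 643 bp. No pair of this kind was found in beta or gamma, where the closest neighbours were 4537 and 3405 bp apart.

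The pairs differed in strength. The first, at 140220641 to 140220843 and 140221257 to 140221469, had low and near-equal folds of 8.14 and 8.4. The next, at 140235309 to 140235569 and 140236031 to 140236195, had 16.6 on the left and 6.29 on the right. The last, at 140248367 to 140248708 and 140248972 to 140249271, had 41.6 and 20.5 and held the strongest alpha region. The left region was thus the higher one, by a ratio of 2.64 and 2.03, in the later pairs, and these left regions carried TET1 while their partners did not.

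Outside the pairs, alpha held single regions with distances from 5.98 kb upward. The strongest of these, at 140306033 to 140306375, had a fold of 28.7 and a −log10 q of 172, the highest −log10 q in the cluster. It stood 57.1 kb beyond the last pair, the widest step inside alpha. The region at 140201664 to 140201962 came next, at 20.2-fold. The first regions of the cluster, at 140165587 to 140165810 and 140180498 to 140180689, had 10.8- and 12.1-fold, and the one at 140186498 to 140186659 had 6.23-fold. The weakest CTCF region of the window, at 140228467 to 140228641, also lay in alpha, at 6.03-fold, a value above 16.1% of the list.

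The beta cluster was a row of single regions, more evenly spaced than alpha or gamma. Its 17 regions spanned 140464026 to 140625076, and the 16 distances between neighbours had a median of 8.17 kb (quartiles 5.24 and 11.0 kb). The upper quartile was 2.1 times the lower one, against 4.55 times in alpha, 3.77 times in gamma and 6.93 times over the whole list. The standard deviation of the distances was 75.2% of their mean in beta, 125% in alpha and 118% in gamma. The closest neighbours, at 140557192 to 140557516 and 140561769 to 140562053, were 4.54 kb apart and had folds of 30.0, the highest of the cluster, and 22.1. The region at 140613737 to 140614012 lay between them in strength, at 26.3-fold. Next in order came 140474021 to 140474292 and 140593323 to 140593697, at 20.9- and 20.4-fold.

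A single wide step broke the row. Fold was 17.2, 20.9 and 20.1 at the 3 regions before it, and it ran from 9.77 to 30.0 at the 14 after it. The step measured 34.8 kb, from the region at 140479813 to 140480238 to the one at 140514635 to 140514907. The weakest beta region, at 140535243 to 140535451, had 9.77-fold enrichment, above the weakest ones of alpha and gamma. The 17 regions compare with 16 beta genes, but which region belongs to which gene was not determined.

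**Figure D2:**
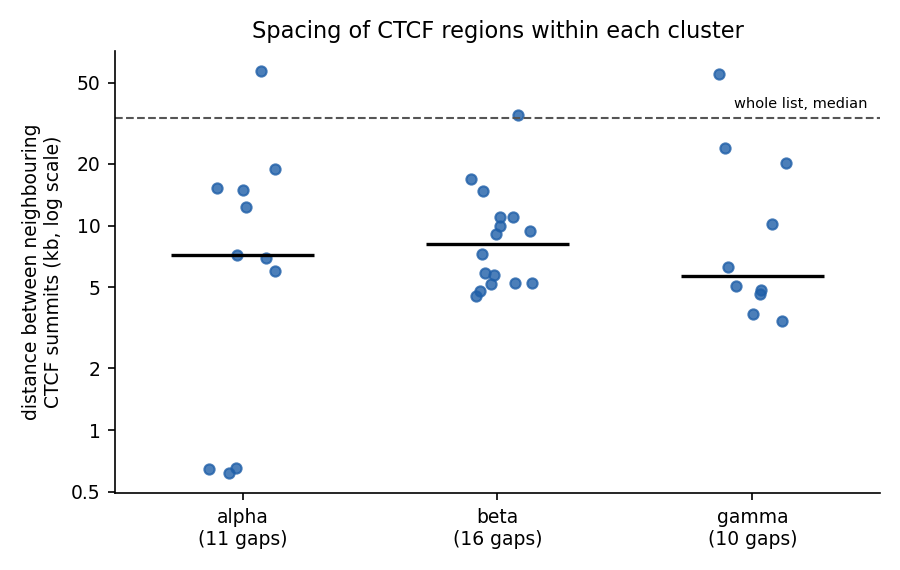
Distance between neighbouring CTCF summits inside each cluster in kb on a log scale. Each point is 1 gap, black bars are medians, and the dashed line is the median of 33.5 kb over the whole CTCF list. The 3 alpha pairs sit near the bottom at 0.616 to 0.649 kb, and the medians of 7.18, 8.17 and 5.67 kb lie below the dashed line. The flanking stretches before and after the window, not drawn, also lie below it, with medians of 8.76 and 11.7 kb.

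In gamma most regions were weak and 1 was strong. The region at 140800414 to 140800848 had a fold of 48.2, above 97.3% of the list, and a width of 435 bp. The next, at 140777347 to 140777556, had 18.6-fold, followed by 140797048 to 140797274 at 14.4-fold, 140792408 to 140792644 at 13.4-fold and 140855338 to 140855591 at 13.0-fold. The other 6 were between 8.03 and 12.0. The weakest, at 140749664 to 140749840, was above 28% of the list.

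The strong gamma region closed a run of 10. The closest step of the cluster, 3.4 kb, led to it from the region at 140797048 to 140797274. Beyond it came the widest step, 54.9 kb, to the last gamma region at 140855338 to 140855591. The median step in gamma was 5.67 kb.

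Of the 5 regions outside the cluster intervals, 3 had folds of 30.0 or more. The pair between alpha and beta came first, at 140419788 to 140420095 with 11.7-fold and at 140420372 to 140421097 with 48.2-fold, with summits 991 bp apart. The latter was the strongest of the window by fold and by −log10 q, which was 190. The pair lay 114 kb after the last alpha region and 43.3 kb before the first beta region. Before gamma, the region at 140699477 to 140700401 had 35.7-fold. It was the widest of the window at 925 bp and the only one that joined 2 rows, with summits 310 bp apart and folds of 35.7 and 3.3.

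It was followed by a region at 140709851 to 140710082 with 12.6-fold, which straddled the approximate start of gamma. The last region of the window, at 140891930 to 140892268 just beyond gamma, had 30.0-fold. The median of these 5 regions was 30.0-fold, against 11.5 in alpha, 18.2 in beta and 12.0 in gamma.

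**Figure D3:**
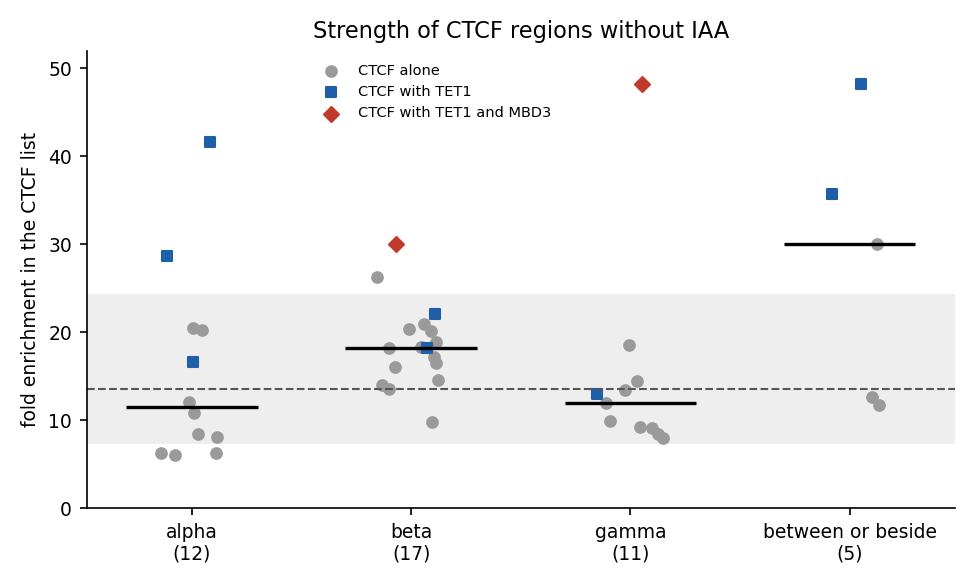
Fold enrichment of CTCF regions without IAA in each cluster, with the number of regions in brackets. Black bars are medians, the dashed line and the grey band are the median and quartiles of the whole list, and symbols mark TET1 and MBD3. Beta sits mostly above the dashed line, and 9 of the 10 regions with TET1 are at 16.6-fold or more.

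Of the 45 CTCF regions, 10 carried TET1, or 22.2% (Wilson 95% interval 12.5% to 36.3%), against 34.4% of all CTCF regions. These intervals cover counting error over regions only. By cluster the counts were 3 of 12 in alpha, 3 of 17 in beta, 2 of 11 in gamma and 2 of the 5 outside. All 11 TET1 regions of the window shared bases with CTCF, as did 91.1% of all TET1 regions. TET1 thus had no region of its own in the window.

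TET1 was at the CTCF region of highest fold in each cluster, but did not follow the order of fold below it. In alpha it was called at the CTCF regions of 41.6-, 28.7- and 16.6-fold, in beta at 30.0-, 22.1- and 18.2-fold, and in gamma at 48.2- and 13.0-fold. Outside the clusters it was called at 48.2- and 35.7-fold. The 5 strongest CTCF regions of the window all had TET1, by fold and by −log10 q alike, and 93.9% of all CTCF regions of 30-fold or more had it. In beta the region of 26.3-fold had no TET1, in gamma those of 18.6-, 14.4- and 13.4-fold had none, and in alpha those of 20.5- and 20.2-fold had none. The beta region of highest −log10 q, 97.9 at 20.4-fold, had no TET1 either, while the one of 30.0-fold had a −log10 q of 85.6. The region just beyond gamma had the same fold as the strongest beta region to 3 digits (30.01 against 30.02) and no TET1.

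Below the top, TET1 was patchy. The weakest region with TET1 had 13.0-fold and the strongest without TET1 had 30.0-fold. Of the 24 regions within these limits, 5 carried TET1, and the 16 weaker ones had none by definition of the limits. Beta regions at 140514635 to 140514907 and at 140552048 to 140552306 had the same fold of 18.2 and the same −log10 q of 39.2, yet TET1 was called at the former only. Split by tertiles of fold over the whole CTCF list, TET1 was at 0 of 7, 3 of 25 and 7 of 13 window regions from the lowest tertile to the highest. These were 0% (0% to 35.4%), 12% (4.17% to 30%) and 53.8% (29.1% to 76.8%). The whole list had 5.64%, 18.1% and 79.3%.

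Beside list regions of like strength, the window share with TET1 was below that of the list in every band of fold. The bands hold few regions and their intervals are wide, so nearness to the list cannot be judged. Only from 20- to 30-fold did the interval leave out the share of the list. Below 10-fold 0 of 11 window regions had TET1, against 5.57% of the list, and from 10- to 20-fold 3 of 20 had it, or 15% (5.24% to 36%), against 19.6%. From 20- to 30-fold it was 2 of 8, or 25% (7.15% to 59.1%), against 65.7%, and from 30-fold upward 5 of 6, or 83.3% (43.6% to 97%), against 93.9%. Only part of the range of −log10 q was cut into bands. From 20 to 60, 4 of 24 had TET1, or 16.7%, against 16.6% of the list, and from 60 to 120 it was 1 of 4, against 65.2%. Outside these bands lay the window regions below 20, none with TET1, and the 5 of highest −log10 q, all with TET1. The 8 regions from 20- to 30-fold had a median −log10 q of 55.4, where list regions of that fold had quartiles of 63.7 and 116, and the part of this in their share was not tested.

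**Figure D4:**
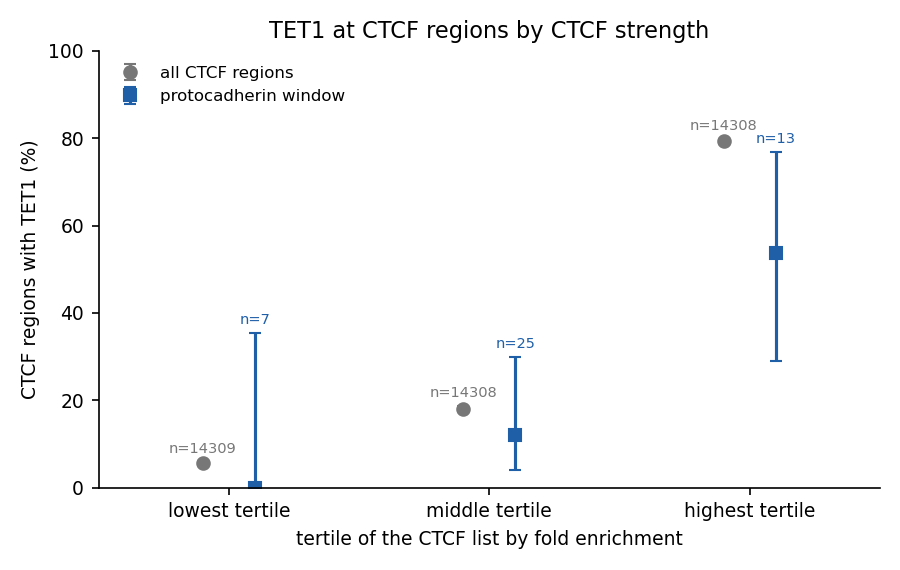
Share of CTCF regions that carry TET1, in percent, by tertile of the CTCF list in fold enrichment, for all CTCF regions and for the protocadherin window. Bars are Wilson 95% intervals over regions, and n is the number of regions. In the window 0 of 7, 3 of 25 and 7 of 13 regions had TET1.

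TET1 itself was strongest where CTCF was strongest by fold. In the TET1 list the region at the strong gamma site had 14.3-fold enrichment, above 94.7% of the list. The one between alpha and beta followed at 12.8-fold (90.8%), then the strongest alpha region at 11.8-fold (87.3%), the border region before gamma at 10.8-fold (82.3%) and the strongest beta region at 9.79-fold (75.5%). The other 5 CTCF regions had TET1 folds of 5.0 to 6.29, all in the lower part of that list. The last gamma region, with CTCF at 13.0-fold, had the lowest of these, at 5.0-fold. By −log10 q of CTCF the order was looser. The alpha region at 140306033 to 140306375, with a CTCF −log10 q of 172, had a TET1 fold of 5.82, above 29.8% of that list.

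Summits nearly coincided. For the 11 TET1 regions the median distance to the summit of the CTCF region they touched was 9 bp, and 8 were within 20 bp. The exceptions were at 24 bp, at 40 bp and at 526 bp. The last of these was a second TET1 region, at 140420349 to 140420627 with 3.79-fold. It touched the left edge of the strong CTCF region between alpha and beta. The summit of that CTCF region had a TET1 region of its own, at 140420836 to 140421046 and 4 bp away. Sharing bases with a CTCF region in itself limits how far apart the summits can lie. Summit distances were not computed over the whole list, so whether the window differs from it was not tested.

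MBD3 was called at 2 CTCF regions, 4.44% (1.23% to 14.8%), against 8.67% of all CTCF regions. They were the regions of highest CTCF fold in beta, at 140557192 to 140557516, and in gamma, at 140800414 to 140800848. Both also had TET1, as 90.7% of CTCF regions with MBD3 did over the whole list. MBD3 fold was 5.6 at the beta site, above 52.4% of the MBD3 list, and 8.26 at the gamma site, above 91.6%. The summits lay 11 and 4 bp from those of CTCF, again with no value for the whole list.

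Not every strong CTCF region had MBD3, as over the whole list. Of the 5 strongest CTCF regions of the window by fold 2 had it, against 36.4% of all CTCF regions at least as strong. No MBD3 region was called at 140420372 to 140421097, where CTCF was as strong as at the gamma site, nor in alpha, where the strongest region had 41.6-fold. Both MBD3 regions of the window were at CTCF, against 56.4% of all MBD3 regions. TET2 had no region in the window without IAA, and it was at 1.1% of all CTCF regions. In all, 35 of the 45 CTCF regions, or 77.8% (63.7% to 87.5%), carried none of the other proteins, against 64.4% of the whole list. The flanking stretches had 69.7% and 68.6%. These 35 are the regions without TET1, since both MBD3 regions had TET1 too.

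With IAA nothing of this array was called. Of the 45 CTCF regions 0 were in the CTCF list with IAA, which kept 0.126% of all CTCF regions. The 11 TET1 and the 2 MBD3 regions were likewise no longer called, where the whole lists kept 0.222% and 0.182%. The lists with IAA held 63 CTCF, 325 TET1 and 50 MBD3 regions over the whole genome, so a count of 0 in the window is near the background and says nothing about these sites in particular. It also does not show that no protein was left there.

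TET2 was called at 5 places in the window with IAA and at 0 without it. The TET2 list held 3022 regions with IAA and 1326 without, or 0.955 and 0.427 per Mb on chromosomes 1 to 22 and X, so a count of 0 without IAA is near the background. Of these, 3 lay in alpha, at 140167257 to 140167411, at 140209095 to 140209239 and at 140222881 to 140223117, all with the same fold of 3.97 and the same −log10 q of 1.34. That pair of values was shared by 81 regions of the TET2 list and lay just above its lowest −log10 q of 1.31. The beta region, at 140481910 to 140482197, was stronger, at 5.89-fold and a −log10 q of 4.09, above 76.4% of the list by fold. The gamma region, at 140874636 to 140874790, had 4.7-fold and a −log10 q of 2.22.

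None of the 5 touched a former CTCF region, and over the whole list 1.16% did. Their summits lay 1.59, 7.31, 1.65, 2.12 and 17.4 kb from the nearest former CTCF summit, in the order given. Within 5 kb there were 3 of 5, against 16.5% of the 2991 TET2 regions with IAA that lie on a sequence with any CTCF region, in a window where CTCF regions stand close. The 5 regions came to 6.67 per Mb. Their −log10 q ran from 1.34 to 4.09, against a median of 3.1 over that list.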

How the data were processed

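The 8 peak lists, 1 per antibody and condition, were called by the authors on the 3 samples of a group pooled, per the labels and the row names in the files. The submitters' processing notes list MACS2 2.1.2, bedtools 2.25.0, Bowtie2 2.3.4, FastQC 0.11.7, SAMtools 1.9 and the build hg19, with no role. What served as control was not given in the sources used here. The deposited fold enrichment (column 7, a ratio), the deposited −log10 q (column 9) and the deposited summit offset (column 10) were used as they stand, within 1 list only. The highest q was 0.05.

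Rows of 1 list sharing 1 bp were joined, keeping the highest value of each, with the summit taken from the row of lowest q. Regions of 2 lists sharing 1 bp were counted as shared. Clusters were assigned by summit. Intervals are Wilson 95% intervals (scipy 1.17.1). No test was run, since no values per sample exist, and joining, sharing and spacing were checked on simulated data. Named were the 5 strongest and the weakest CTCF region per cluster, the closest and widest pairs, regions with MBD3, regions away from CTCF or called with IAA, and joined regions; others, such as tied and TET1 regions, were chosen after their values were seen. The members, lists and settings were chosen with earlier results of these data known. Coordinates are hg19, counted from 1. Promoter sequences are from RefSeq, GRCh38.p14. Inputs were not analysed here.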

Additional observations from a re-analysis of the deposited data

How the results depend on the processing

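Of 89 values recomputed under other settings, 81 stayed within the 95% interval or within 1.5 times the reported count, and 8 moved. Some of the 81 could not move. Counts of 0 stay at 0 under stricter limits, and all window CTCF regions lie above 5 in fold and −log10 q, with minima of 6.03 and 6.83. TET1 was at 0.0% of the 45 CTCF regions when MBD3, TET1 and TET2 were each held to as many regions of highest −log10 q as the shortest list has, so every TET1 call in the window lies below that rank. MBD3 was at 0.0% at −log10 q of at least 10. Between 40 and 52 CTCF regions were found, 0 of them with IAA. The share with TET1 was otherwise between 14.3% and 23.9%. The alpha pairs held 6 regions with a limit of 2 kb and 0 with 500 bp, both limits added after the data were seen. No paired analysis was possible because each list pools its 3 samples. The unknown depth limits all counts of weak regions.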
